A study of Salmo salar with 6 samples.

Results

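The genes described here are the splicing factors and RNA helicases of the Atlantic salmon head kidney. They were taken by name, and earlier results of these data were known when the set was chosen. An array probe was matched through its RefSeq accession to a salmon gene symbol. Symbols beginning with sf3, snrp, srsf, prpf, hnrnp, u2af, lsm, ddx or dhx were kept, leaving out dhx58. That gave 57 genes of the 25460 matched on the arrays, each with 1 probe, and no u2af gene was among them. By name 29 were helicases, and 28 had a prefix other than ddx or dhx and are called splicing proteins below. The grouping follows symbols alone, and lsm12, for example, encodes a protein outside the snRNA rings described below.

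Splicing removes introns from a nascent transcript in a series of RNA-protein particles. The U1 snRNP marks the start of the intron, the U2 snRNP binds the branch point through the SF3A and SF3B complexes, and the tri-snRNP with PRPF8 at its centre completes the active spliceosome. SR proteins and hnRNPs decide which exons are recognised, while DEAD-box (ddx) and DEAH-box (dhx) helicases use ATP to rearrange RNA in the spliceosome, in the assembly of ribosomes, in export and in translation. The head kidney of fish makes blood cells, so these genes serve a tissue in which cells divide and mature all the time.

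RNA came from juvenile salmon of 252 g, unvaccinated and treated on arrival with hydrogen peroxide and formaldehyde, which both groups share. For 133 days the control group ate a basal diet with 0% additive, and the MPLE group ate that diet with 0.1% of an extract of sage and lemon verbena rich in ursolic acid and other triterpenes. Each diet was represented by 3 pools of RNA, and each pool was hybridised to 1 one-colour Agilent array, so the number of arrays limits the precision. A pool was taken to hold RNA of 6 fish, though the labels can also be read as 6 fish per diet. The strain and sex of the fish are not given in the sources used here, and neither is the tank of each pool, so tank could not be entered in the fit. In pooled tissue, fewer cells of a type and less RNA per cell cannot be told apart.

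The array signal was uneven. Its 75th percentile ran from 138 to 470 intensity units on control arrays and from 499 to 710 on MPLE arrays, with control pool 3 the dimmest. That array had 18046 of 42438 spots well above background, against 24841 to 33020 on the others. Each array lay on its own slide and the control arrays were scanned first, so the diets cannot be told apart from slide or scan order. Markers of the tissue were present: 2 of 2 erythroid, 4 of 4 neutrophil, 2 of 2 B cell and 3 of 4 interrenal steroid genes on the arrays were well above background on all 6, while 0 of 3 chromaffin genes were. Of 5 kidney tubule genes 0 were above background on all arrays: slc22a6l was on 3 control and 2 MPLE arrays, slc12a3 and cubn on 1 array each, and lrp2a and slc5a2 on none. Skeletal muscle genes, 5 of 14 listed, 4 of them above background on every array, summed to 11.5 to 47.9 times the 75th percentile in control pools and 3.14 to 7.96 times in MPLE pools, highest in control pool 3.

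Between the diets, none of the splicing factors and helicases passed the adjusted threshold. A level is given as the log2 signal minus the 75th percentile of its array, and a change as the mean MPLE level minus the mean control level, fitted by limma. Of the 57 genes 51 were bright enough to be tested, meaning that the scanner software called them well above background on all 3 arrays of one diet or of both. Over all 23130 probes tested, 0.467% passed an adjusted p of 0.05 (0.419% higher and 0.0476% lower), and 0 of the 51 did, the smallest adjusted p being 0.156. At an unadjusted p under 0.05, 1 of the 51 was higher (lsm10) and 0 were lower, against 11.5% higher and 5.89% lower over all probes. Changes were above 0 for 15 of the 51 and below 0 for 36, with a median of -0.09, while 49.3% of all probes were above 0 and their median was -0.01. Brightness enters this comparison: 48 of the 51 were well above background on all 6 arrays. Of these 48, 12 (25%) were above 0, the median was -0.19, and 0 were higher and 0 lower at an unadjusted p under 0.05. Among the 16868 probes with that property 40.0% were above 0 and the median was -0.13. At an unadjusted p under 0.05, 7.46% of those probes were higher and 6.65% lower. The member called higher, lsm10, was not among the 48 and entered through the MPLE arrays alone. Of the 6262 tested probes near background on at least 1 array, 74.4% were above 0. At an unadjusted p under 0.05, 22.4% of these dim probes were higher and 3.86% lower. Most changes were small: 37 of the 51 (72.5%) had a change under 0.5 in absolute log2 size, against 56.3% of all probes and 62.7% of the 16868 bright ones. The median absolute change of the 51 was 0.32, against 0.43 over all probes and 0.38 over the bright ones. A change of 1 or more upwards was found for lsm10 and sf3b6 (11.3% of all probes) and downwards for 0 members (4.14%). In either direction it was found for 3.92% of the members and 8.99% of the bright probes. The arrays of the diets did not overlap for 3 members with MPLE above (lsm10, sf3b6 and ddx41) and 3 with MPLE below (dhx8, ddx54 and hnrnpdl), where all probes gave 15.8% and 11.7%. Of the 16868 bright probes 2003 had MPLE above and 2395 had MPLE below without overlap.

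Missing the threshold does not show equal levels. The 95% interval of the change, not adjusted for the number of genes, lay wholly between -1 and 1 on the log2 scale for 27 of the 51 (52.9%, against 30.3% of all probes and 37.0% of those bright on all arrays), so a doubling or halving lay outside the interval for these. For the other 24 a change of that size remained inside it in at least 1 direction. The median standard error of a change was 0.31.

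**Figure D1:**
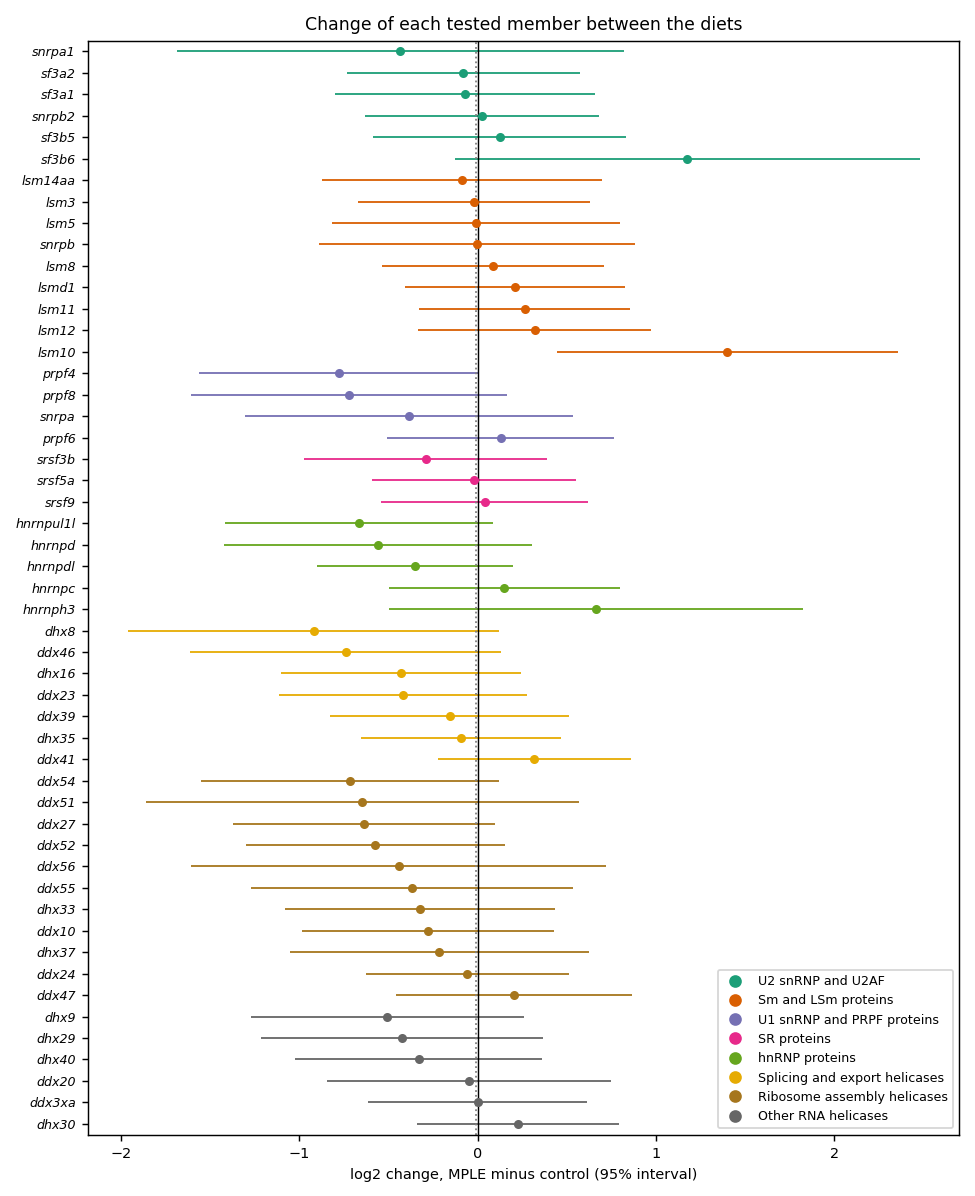
Change between the diets for each of the 51 tested members, grouped by family and sorted by change within it. The x axis gives the log2 change, MPLE minus control, as points with 95% intervals from limma (3 pools per diet, not adjusted for the number of genes), and the dotted line is the median of all 23130 probes tested. Only the interval of lsm10 excludes 0, and most helicase points (yellow, brown and grey, in the lower part) lie left of 0.

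The first steps of intron recognition are represented by proteins of the U2 snRNP. Of the 6 genes, all were well above background on every array, 0 passed the test, 3 had a positive and 3 a negative change, and the median was -0.02. The subunits of the SF3A complex kept close levels: sf3a1 had a change of -0.07 (95% interval -0.80 to 0.66) and sf3a2 by -0.08 (-0.74 to 0.57). The gene snrpb2, for a U2 snRNP protein that binds the snRNA, had a change of 0.02. For these the diet means lay within the spread of the pools.

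The gene sf3b6, whose product is the SF3B subunit that contacts the branch point, was the exception in size. Its level was 2.79, 2.07 and 0.52 in control pools 1, 2 and 3 and 3.20, 2.87 and 2.83 in MPLE pools 1, 2 and 3. All MPLE pools lay above all control pools, but most of the distance came from control pool 3. The change was 1.18 with a standard error of 0.55 (2.26-fold, adjusted p = 0.323 by limma), and without control pool 3 it was 0.54. The neighbouring SF3B subunit gene sf3b5 was also lowest in control pool 3, at 3.03, while control pools 1 and 2 were at 3.88 and 3.62 and the MPLE pools, at 3.73, 3.75 and 3.41, overlapped them. Its change was 0.12 (adjusted p = 0.838 by limma). The gene snrpa1, for another U2 snRNP protein, went the other way in that pool, with 1.78, 1.83 and 3.67 in control pools and 1.63, 2.21 and 2.15 in MPLE pools. Its change of -0.43 (adjusted p = 0.67 by limma) became 0.19 without control pool 3.

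Sm and LSm proteins form rings on small RNAs: Sm proteins on the spliceosomal snRNAs, LSm2 to LSm8 on U6 snRNA, and LSm10 and LSm11 on the U7 snRNA that trims the ends of histone transcripts. In this family of 9, 0 passed the test, 5 changes were positive and 4 negative, and the median was 0.09. Only 6 of the 9 were well above background on all arrays. The other 3, lsm10, lsm11 and lsm12, entered through the MPLE arrays alone and all had a positive change, so the filter has a part in this median. The Sm gene snrpb had the same mean on both diets, 4.43 ± 0.68 in control and 4.43 ± 0.20 in MPLE pools (SD, n = 3 each). The U6-ring genes among the members were close to it in this respect: lsm3 had a change of -0.02, lsm8 of 0.09 and lsm5 of -0.010. Their adjusted p lay between 0.874 and 0.989 by limma. Outside the members, smx5 (synonym lsm2) and LOC100195694 (synonym lsm7) had changes of 0.51 and 0.20 (adjusted p = 0.412 and 0.722 by limma).

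Of all 51 members, lsm10 had the highest change and the smallest p. Its level was -3.44, -2.31 and -3.75 in control pools 1, 2 and 3 and -2.02, -1.71 and -1.57 in MPLE pools 1, 2 and 3, without overlap. The change was 1.40 with a standard error of 0.41 (2.64-fold, unadjusted p = 0.0103, adjusted p = 0.156 by limma). This is a dim probe, well above background on all MPLE arrays but not in control pool 3, so it entered through the MPLE arrays alone. After normexp background correction its change was 0.24, and with array weights it was 1.68 and passed (adjusted p = 0.00771 by limma). With array weights 2971 of all probes passed, against 108 as reported. The gene of its partner in the U7 ring, lsm11, was at -2.81, -3.31 and -3.14 in control and -2.96, -2.70 and -2.80 in MPLE pools. These overlap, and the change was 0.26 (95% interval -0.33 to 0.86). The gene lsm12, which encodes an LSm-domain protein outside these rings, had a change of 0.32, and its probe, like that of lsm11, was not well above background in control pool 3. Both entered through the MPLE arrays alone, and both had a negative change after normexp correction, -0.58 for lsm11 and -0.38 for lsm12.

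For the U1 snRNP and the PRPF proteins of the tri-snRNP, 3 of 4 genes had a negative change and 0 passed the test, with a median of -0.55 that was -0.21 without control pool 3. The gene prpf4, for a protein of the U4/U6 particle, had levels of 3.55, 2.48 and 3.25 in control and 2.20, 2.52 and 2.23 in MPLE pools. Control pools 1 and 3 lay above all MPLE pools while control pool 2 lay among them. Its change of -0.78 (standard error 0.33) had the second smallest p of the members (0.0521 unadjusted, 0.292 adjusted, by limma). With array weights the change was -1.12 and passed (adjusted p = 0.023 by limma), as did 2971 of all probes.

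The gene prpf8, for the large protein at the catalytic core, showed a like arrangement, with 4.41, 3.66 and 5.02 in control and 3.45, 3.86 and 3.61 in MPLE pools. Again control pool 2 was level with the MPLE pools, and the change was -0.72 (adjusted p = 0.358 by limma), or -0.40 without control pool 3. The U1 protein gene snrpa had a change of -0.38 (adjusted p = 0.605 by limma), which was -0.02 without control pool 3. The gene prpf6, whose product bridges the U5 and U4/U6 particles, had a change of 0.13 (95% interval -0.51 to 0.77).

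Splicing regulators varied least among the SR proteins. All 3 genes, srsf3b, srsf5a and srsf9, were bright on every array, 0 passed the test, and their changes were -0.29, -0.02 and 0.04. The level of srsf9 was 3.18, 3.40 and 3.65 in control and 3.34, 3.56 and 3.44 in MPLE pools, with the MPLE pools inside the range of the control pools. The level of srsf5a was 3.81, 3.42 and 3.82 in control and 3.57, 3.74 and 3.68 in MPLE pools, also inside that range. Their 95% intervals, -0.54 to 0.62 and -0.59 to 0.55, lay within -1 to 1.

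Of the hnRNP genes, which encode proteins that coat nascent transcripts, 5 of 6 were tested, 0 passed the test, 3 changes were negative and 2 positive, and the median was -0.35. The gene hnrnpul1l was at 4.07, 3.41 and 4.33 in control and 2.99, 3.51 and 3.32 in MPLE pools, overlapping only through control pool 2, with a change of -0.67 (adjusted p = 0.331 by limma). The related genes hnrnpd and hnrnpdl, for AU-rich element binding proteins, had changes of -0.56 and -0.35, the former -0.18 without control pool 3. Of these hnrnpdl did not overlap between the diets, at 3.32, 3.04 and 3.37 in control and 2.83, 2.98 and 2.86 in MPLE pools, but its control pool 2 and MPLE pool 2 were close, and its adjusted p = 0.446 by limma. The gene hnrnph3 was at -0.01, -0.09 and -1.78 in control and -0.17, 0.27 and 0.00 in MPLE pools. It was low in control pool 3 alone, so that its change of 0.66 (adjusted p = 0.487 by limma) was 0.09 without that pool.

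**Figure D2:**
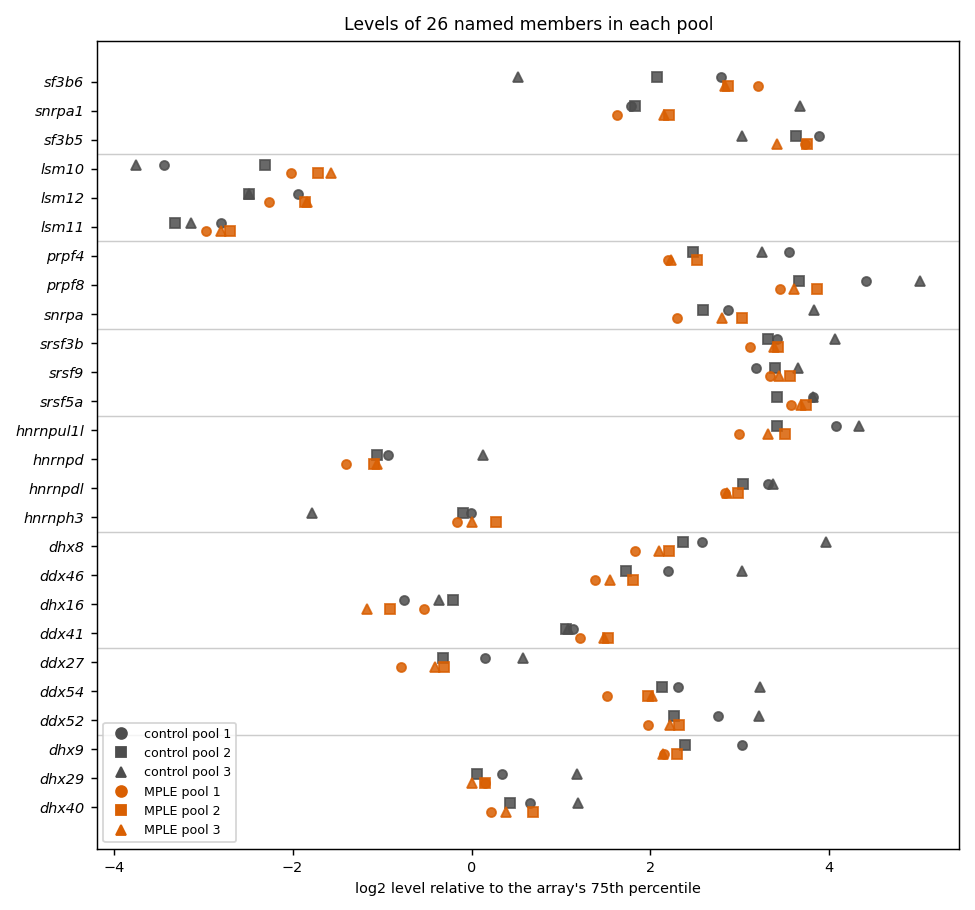
Level of 26 named members in every pool, with symbols in rows and grey lines between families. The x axis is the log2 signal relative to the array's 75th percentile, grey marks are control and orange marks MPLE pools, and shapes give the pool number. Grey triangles (control pool 3) lie to the far right in many rows and to the far left for sf3b6 and hnrnph3, while the orange marks of a gene lie close together.

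Among the helicases, 24 of 29 genes were tested, 0 passed the test and 0 reached an unadjusted p under 0.05. Their changes leaned to one side: 21 were below and 3 above 0, with a median of -0.35. All 24 were well above background on all 6 arrays, and among all probes with that property 40.0% of changes were above 0 and the median was -0.13. The lean varied with the pools used. Without control pool 3, 17 of 24 were below 0 and the median was -0.08, beside 0.01 for all probes. Without MPLE pool 1, 18 of the 25 then tested were below 0 and the median was -0.23, beside 0.02 for all probes. Leaving out any other single pool left 20 or 21 of 24 below 0. Without control pool 2, 7 of the 24 were lower at unadjusted p under 0.05, where 10.67% of all probes were lower. The helicase median was then -0.51, beside -0.07 for all probes. When a pool is left out, the values for all probes include dim ones, and those of bright probes alone are not given here.

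The helicases that remodel the spliceosome include dhx8, which releases the finished mRNA in yeast and human cells, and ddx46, which acts when the U2 snRNP joins. Of this family 7 of 9 were tested, 6 with a negative change, with a median of -0.42. The level of dhx8 was 2.57, 2.36 and 3.96 in control and 1.83, 2.21 and 2.10 in MPLE pools. All MPLE pools lay below all control pools, by little for control pool 2 and MPLE pool 2. Its change of -0.92 was the most negative of the members (standard error 0.44, 1.89-fold lower, adjusted p = 0.331 by limma) and was -0.42 without control pool 3. The level of ddx46 was 2.20, 1.73 and 3.03 in control and 1.38, 1.81 and 1.55 in MPLE pools, which overlap, and its change was -0.74 (adjusted p = 0.345 by limma), or -0.38 without control pool 3. The gene dhx16, another helicase of the activated spliceosome, had a change of -0.43 and ddx23, of the tri-snRNP, by -0.42. With array weights ddx23, a member singled out here after its values were seen, had a change of -0.77 and passed (adjusted p = 0.0476 by limma). In that setting 2971 of all probes passed.

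The only member of that family with a positive change was ddx41, a spliceosome-associated helicase also studied as a sensor of cytosolic DNA. It was at 1.14, 1.06 and 1.07 in control and 1.22, 1.53 and 1.48 in MPLE pools. The control pools agreed within 0.04 (SD, n = 3) and the MPLE pools all lay above them. The change was small, 0.32 with a standard error of 0.23 (adjusted p = 0.477 by limma), and was -0.03 after normexp correction and -0.12 with arrays centred on all 10 spike-in probes, but 0.40 without the 2 spike-ins that differed between the diets.

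Helicases of ribosome assembly, which unwind pre-rRNA in the nucleolus, were the largest family. Of 12 genes 11 were tested, 10 with a negative change, and the median was -0.37. The level of ddx54 was 2.30, 2.13 and 3.22 in control and 1.52, 1.98 and 2.01 in MPLE pools, without overlap, with a change of -0.71 (adjusted p = 0.343 by limma), or -0.38 without control pool 3. The genes ddx27 and ddx52 had changes of -0.64 and -0.57, each with overlap at control pool 2 and MPLE pool 2. The widest spread of the family was that of ddx51, at 2.89, 2.17 and 4.28 in control and 2.33, 2.50 and 2.56 in MPLE pools, a change of -0.65 that was within the spread of the control pools and was -0.06 without control pool 3. In contrast ddx24 was at 1.62, 1.52 and 1.49 in control and 1.22, 1.65 and 1.59 in MPLE pools, a change of -0.06 (95% interval -0.63 to 0.51). The family's median was -0.04 without control pool 3.

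The other RNA helicases act in translation, decay, snRNP assembly and sensing. Of 8 genes 6 were tested, 5 with a negative change, and the median was -0.19. The translation helicase gene ddx3xa had nearly the same mean on both diets, 2.28 ± 0.29 in control and 2.28 ± 0.15 in MPLE pools (SD, n = 3 each). The gene ddx20, whose product belongs to the SMN complex that loads Sm rings, had a change of -0.05. The genes dhx29, for a helicase of translation initiation, and dhx40 had changes of -0.43 and -0.33 (adjusted p = 0.508 and 0.555 by limma), which were -0.10 and -0.12 without control pool 3. For dhx9, a nuclear helicase of double-stranded RNA, an outlier flag removed control pool 3. The fit thus used 2 control pools at 3.02 and 2.38 and MPLE pools at 2.15, 2.30 and 2.14, with a change of -0.51 (adjusted p = 0.427 by limma). It was -0.78 with the outlier spot kept and -0.19 without control pool 1.

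Dim signal kept 6 members out of the test. The gene ddx4, the vasa homologue that marks germ cells, stood out from background in MPLE pools 2 and 3 and in none of the control pools, with levels of -6.53, -5.86 and -3.68 in control and -5.55, -4.80 and -2.61 in MPLE pools. The probes of ddx19a and dhx32b were not well above background on any array. Those of ddx17 and ddx49 were on 1 MPLE array each, and that of hnrnpua was on 2 arrays of each diet. No fold change is given for these, though the alternative without the filter on dim probes did fit them. Salmon carry many duplicated genes, and whether a probe also binds the transcript of a second copy was not tested.

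Variation within a diet was larger in control than in MPLE pools. For 46 of the 50 members measured on all arrays the SD was larger among control pools, against 83.7% of all probes, and the median SD of the tested members was 0.45 in control and 0.19 in MPLE pools. Control pool 3 held the highest level of 31 of those 50 members, and for 38.6% of all probes it was the highest. Control pool 2 held the lowest level of 22 members (25.7% of all probes) and MPLE pool 1 of 20 (23.4%). In control pool 3 the helicases stood 0.64 above their own mean over the arrays (median), the splicing proteins 0.31 and all probes 0.10. The same array was the dimmest. Its summed marker levels, as multiples of the 75th percentile, were the highest for muscle, liver (50.5, against 22.8 to 34.3 on the other arrays), thrombocytes (25.4, against 10.3 to 15.3) and kidney tubule (1.12, against 0.17 to 0.40), and the lowest for T cells (0.92, against 2.37 to 3.02). Its interrenal sum was also the highest, 321 against 180 to 296 on the other arrays. Its erythroid, neutrophil, B cell and chromaffin sums lay inside the range of the other arrays. The erythroid sum was 129 in MPLE pool 2, 535 and 620 in MPLE pools 1 and 3, and 248 to 388 in control pools. The part of these marker differences in the members' levels was not tested. Without control pool 3, 39 of the 51 changes turned sign or moved in size by over 1.5 times. Leaving out any other single pool gave 12 to 28 such changes. Without control pool 3 the family medians were 0.18 for the U2 snRNP, 0.24 for Sm and LSm proteins and 0.05 for SR proteins. They were -0.23 for hnRNPs, -0.38 for splicing helicases and -0.11 for the other helicases.

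**Figure D3:**
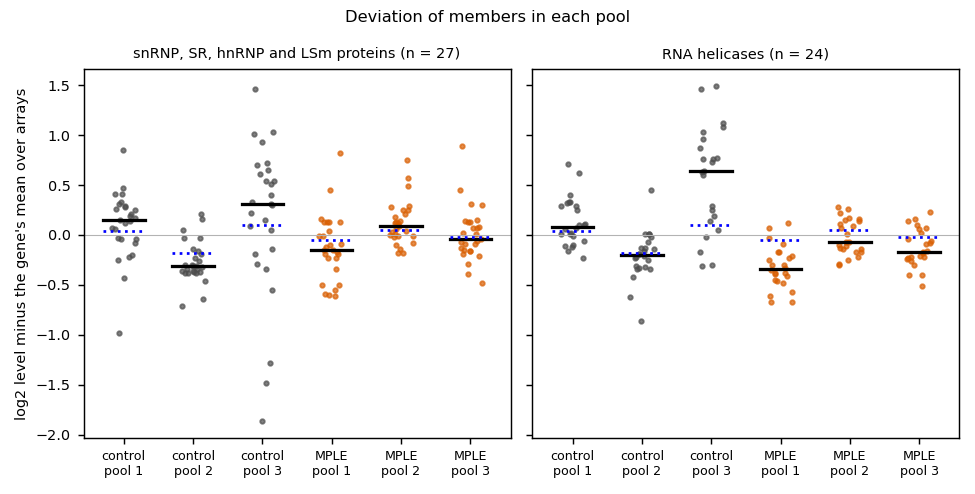
Deviation of each tested member from its own mean over the arrays, by pool, for splicing proteins (left) and helicases (right). The y axis is in log2 units, points are genes (grey for control, orange for MPLE), black bars are the median of the points and dotted blue bars the median of all probes tested. Points are spread most widely in control pool 3, where the helicase median is 0.64 and the median of all probes 0.10.

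Genes of the splicing pathway outside the naming prefixes were fitted in the same way. Of 166 listed symbols 59 genes were on the arrays and 55 were tested, with a median change of 0.00031, 28 changes above and 27 below 0. None passed the adjusted threshold by limma, against 0.467% of all probes. At unadjusted p under 0.05, 2 of the 55 were higher and 0 lower, against 11.5% higher and 5.89% lower over all probes. Of the 55, 50 were bright on all 6 arrays, and of the 16868 bright probes 7.46% were higher and 6.65% lower. The 2 genes were thoc1, of the THO complex that couples transcription to export, and rbm8a, of the exon junction complex. The level of thoc1 was 1.89, 1.42 and 1.15 in control and 2.07, 2.55 and 2.58 in MPLE pools, a change of 0.91 (standard error 0.30, adjusted p = 0.196 by limma). The level of rbm8a was -1.19, -1.34 and -1.21 in control and -0.92, -0.35 and -0.58 in MPLE pools, a change of 0.63 (adjusted p = 0.267 by limma). Neither overlapped between the diets. Of the 55, 6 had MPLE above and 3 had MPLE below without overlap, where all probes gave 15.8% and 11.7%. Among the 16868 bright probes the counts were 2003 and 2395. The next by p were srrm1 (-0.75), for a splicing coactivator, mbnl1 (-0.66), for a regulator of alternative splicing, and zcrb1 (0.74), for a protein of the minor spliceosome, with adjusted p from 0.298 to 0.333 by limma.

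For many members the direction of the change depended on how the arrays were treated. In the deposited series values, which are not scaled between arrays, 50 of the 51 members were above 0, with a median of 0.77 beside 1.05 for all probes. For dhx8, ddx46, ddx54, ddx27, prpf8 and hnrnpul1l, among others, this was the only 1 of the 23 alternatives with a change above 0. With normexp correction 19 of the 51 had the opposite sign to that reported, and without control pool 3 it was 13. Under all 23 alternatives that gave a value, hnrnph3 and sf3b6 stayed above 0 and prpf4 stayed below 0, as did lsm10 above 0 under its 21. Several of these alter only the test or the filter and not the change itself, so the sign could not differ there. The values nearest 0 were 0.09 for hnrnph3 (without control pool 3) and -0.03 for prpf4 (deposited values). They were 0.30 for sf3b6 (array weights) and 0.24 for lsm10 (normexp correction).

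**Figure D4:**
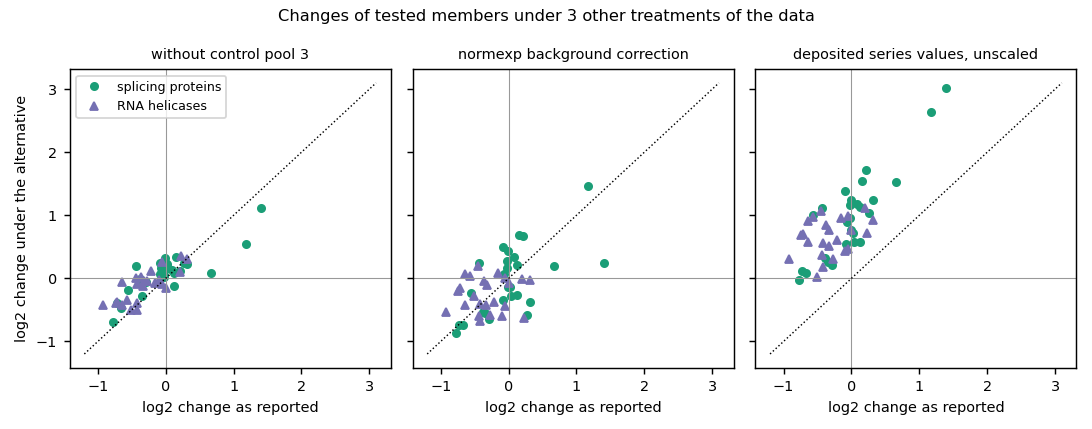
Change of the 51 tested members as reported (x axis) against the change under another treatment of the data (y axis), both as log2 MPLE minus control, with equality as a dotted line. Circles are splicing proteins and triangles helicases. Without control pool 3 most helicases move towards 0, and in the unscaled deposited values nearly all points lie above 0.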

How the data were processed

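Head kidney RNA of 6 pools, 3 per diet grouped by title, was measured on one-colour arrays. Cy3-labelled cRNA was made from 200 ng of RNA with spike-ins, per the labels' protocols. Per the file headers, Feature Extraction 10.7.3.1 gave each spot a processed intensity, from which background and a spatial trend had been taken, with no scaling across arrays. The deposited series table holds log2 values, which equalled log2 of the background-subtracted intensity on all 6 arrays. The array type has 1 colour, although the design text speaks of a reference design.

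Outlier spots (6 to 205 per array) were left out, log2 processed intensity was centred on each array's 75th percentile, and repeated spots were averaged. A probe was tested if the software called it well above background on all 3 arrays of either diet and if 2 arrays or more of each diet measured it. The fit was limma 3.58.1 in R 4.3.3 (lmFit, eBayes, diet alone, two-sided) over 23130 probes with Benjamini-Hochberg adjustment, and it was tested on simulated data. Of 42386 probes 25641 matched a gene of assembly Ssal_v3.1, which served for names only. Members and lists were chosen with earlier results of these data known. Named are, in each of 8 families, the 3 members of smallest p, the 5 highest and 5 lowest changes, and the 5 other splicing genes of smallest p; further members named were chosen after their values were seen. Nothing says whether pools came from separate tanks, so p-values measure the spread between these pools and arrays. Sequences were not used here. Alternatives are given in the closing section.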

Additional observations from a re-analysis of the deposited data

Results flagged for a closer look

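Of the 10 probes for the added spike-in RNA, which served for the splicing genes only in an alternative centring, 2 were higher on MPLE arrays. The difference was 2.91 for E1A_r60_3 and 2.15 for E1A_r60_n9 on the log2 scale. For E1A_r60_3 only 6, 9 and 1 of 32 spots on the control arrays were well above background, so its control level is mostly unmeasured, while E1A_r60_n9 was well above it on every spot. The other 8 differed by -0.49 to 0.71, the lowest being E1A_r60_a104, with 0 control spots well above background.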

How the results depend on the processing

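In limma, 0 members passed the adjusted threshold under 22 of 23 alternatives. In some of these no probe at all passed, so 0 was the only possible count. They were the deposited values, the fit without the filter on dim probes, and those without any 1 MPLE pool. With adjustment over 1 probe per gene 1 probe passed. With array weights 3 members passed (lsm10, prpf4 and ddx23), as did 2 other splicing genes, where 2971 of all probes passed. The shares in brackets are those of all probes in the same setting. The count of members higher at unadjusted p was 1 as reported (11.5%). It was 2 with median centring (9.57%), 2 with the pool number as a replicate block (11.0%) and 0 with spike-in centring (4.02%). With normexp correction it was 0 (6.75%), in the deposited values 4 (16.4%), and 1 to 2 when a pool was left out (6.25% to 14.7%). The count lower was 0 as reported (5.89%). It was 5 with quantile normalization (7.31%), 22 with spike-in centring (31.6%) and 10 with array weights (14.3%). It was 1 with outlier spots kept (6.20%), 1 with an intensity trend (5.85%) and 1 among probes bright on all 6 arrays (8.55%). When a pool was left out it was 0 to 10, with 10 without control pool 2, where 10.67% of all probes were lower. Spike-in centring made 31.6% of all probes lower and rests on 2 of the 10 spike-ins: their mean difference was 0.44, and -0.08 without E1A_r60_3 and E1A_r60_n9. Centring on the other 8, chosen after seeing the data, gave 1 member lower (5.61%) and a median of -0.013. The members' median, -0.09 as reported, was -0.54 with spike-in centring (all probes -0.46), 0.77 in the deposited values (all probes 1.05), and -0.33 to -0.0043 when a pool was left out, the last without control pool 3. Other shifts of the median of all probes were -0.24 without the filter on dim probes and -0.21 with normexp. An alternative chosen after seeing the data, with outlier spots kept and the test limited to probes bright on all 6 arrays, gave 0 higher (8.85%) and 2 lower (8.96%). A second, the 75th percentile over all spots with outliers included, left the members' counts the same and 79 of all probes past the threshold in place of 108 (0 to 166 when a pool was left out, 0 without any 1 of the MPLE pools). Pool numbers are not stated to pair the samples. Deviations of same-numbered pools from their diet means correlated at -0.18, -0.34 and 0.08 across probes, and control pool 2 went best with MPLE pool 1 (0.47). Deviations sum to 0 over the 3 pools of a diet, so these values cannot decide whether same-numbered pools belong together. The block passed 0 members and 475 of all probes. With 1 array a slide, slide could not be a block. Each member has 1 probe, so averaging probes left members' values as they were. Intensities near background limit lsm10, lsm11 and lsm12 most.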

Other observations

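On the arrays, 4 further genes carried a splicing or helicase name only as a synonym, and they were no members. The antiviral RNA sensor gene rigi was at 2.89, 2.43 and 3.17 in control and 1.89, 2.56 and 2.06 in MPLE pools, a change of -0.66 (adjusted p = 0.324 by limma) with overlap at control pool 2. The gene smx5, with the synonym lsm2, was at 2.34, 1.49 and 1.73 in control and 2.64, 2.22 and 2.22 in MPLE pools, a change of 0.51 (adjusted p = 0.412 by limma). The exon junction helicase gene if4a3 had a change of 0.22 (95% interval -0.44 to 0.87), and LOC100195694, with the synonym lsm7, by 0.20 (-0.48 to 0.87).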
